A study of Arabidopsis thaliana with 27 samples.

Results

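Genes that encode late embryogenesis abundant (LEA) proteins, 10 loci in all, were followed through seed development in Arabidopsis thaliana plants that matured their seeds under constant heat. The 10 members were chosen by locus name, as a set of textbook LEA genes, out of 27587 loci in the table: EM1 (AT3G51810) and EM6 (AT2G40170) of the LEA_5 subfamily, LEA4-5 (AT5G06760) of LEA_1, AT3G15670 and ECP63 (AT2G36640) of LEA_4, the dehydrins RAB18 (AT5G66400) and XERO1 (AT3G50980), the seed maturation proteins RAB28 (AT1G03120) and AT3G22500, and M17 (AT2G41260). The rule names loci and uses no measured value, but it was set with earlier results of these data known. All 10 had reads, but EM6 and AT3G22500 were too low to be tested, so 8 of the 10 entered the statistics.

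The samples were whole seeds of the wild-type ecotype Col-0, taken when the embryo was at the heart, the bent or the mature stage. Plants had a 16 h day and were moved at flowering to a mean of 23 °C (24/22 °C day/night, the control), 25 °C (26/24 °C, mild heat stress) or 27 °C (28/26 °C, severe heat stress). According to the labels all plants were held at 20/18 °C before that, a point on which the study's methods differ. Stage and temperature made 9 groups of 3 libraries of RNA from pooled seeds, 27 in all, and no genotype other than Col-0 was used here.

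LEA proteins are mostly small, very hydrophilic proteins that accumulate late in seed maturation, when the embryo acquires tolerance of drying, and several of them also accumulate in leaves and roots under drought, cold or salt. Most are unfolded in solution and are thought to shield membranes and other proteins as water is lost. Many LEA genes respond to abscisic acid (ABA) through bZIP transcription factors such as ABI5 and EEL, which bind the ABA-responsive element (ABRE) with its ACGTG core, and in the embryo through the maturation regulators ABI3, FUS3, LEC1 and LEC2.

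The libraries held between 17227596 and 19445885 counts. Transcripts of 6 embryo maturation genes (cruciferins, oleosins and an albumin) summed to 565.8 to 61400 normalised counts in heart seeds at 23 °C, then to 77190 to 109500 (bent) and 1828000 to 2084000 (mature), which follows the stage labels with 1 exception. Replicate 1 of heart seeds at 23 °C stood at 61400 against 897.8 and 565.8 in the other libraries of its group, and each member call that changes when it is left out is given both ways. Markers of seed coat (4 genes), endosperm (4 genes) and pollen (6 genes) were also present, with none of these 20 marker genes at 0 in all libraries of any group. In whole seeds, a larger share of embryo cells and more RNA per embryo cell cannot be told apart.

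The sequence just before the gene start was read for 9 of the members (all but ECP63) from the RefSeq annotation of TAIR10.1 (250 bases, written 5′ to 3′ on the gene's strand). The ABRE core ACGTG, searched on both strands with overlapping matches counted as 1 site, was present in 7 of the 9, against 22.9% of 27390 promoters of this length, and 5 of the 9 had at least 2 sites, against 4.99%. RAB18, LEA4-5 and AT3G15670 had 3 each, EM1 and EM6 had 2 each, RAB28 and XERO1 had 1 each, and M17 and AT3G22500 had none in this window. The RY core CATGCA, the element bound by ABI3 and FUS3, was found in AT3G22500, 1 of the 9 against 8.44% of promoters, and the heat shock element GAANNTTC in 0 of the 9 against 9.55%. The promoters shown here, with the ABRE cores in capitals, are those of LEA4-5, AT3G15670, XERO1 and M17. They are examples of windows with 3, 1 and 0 sites, picked with the expression of these genes known. Site number was not tested against expression. RAB18, which also had 3 sites, was called in no comparison between temperatures with all libraries.
LEA4-5, chr5:2090431-2090680, minus strand: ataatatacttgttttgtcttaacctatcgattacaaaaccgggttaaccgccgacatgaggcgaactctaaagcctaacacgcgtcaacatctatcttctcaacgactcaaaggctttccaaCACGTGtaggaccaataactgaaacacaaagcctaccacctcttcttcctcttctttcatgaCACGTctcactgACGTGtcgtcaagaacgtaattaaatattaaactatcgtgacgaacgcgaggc
AT3G15670, chr3:5310989-5311238, minus strand: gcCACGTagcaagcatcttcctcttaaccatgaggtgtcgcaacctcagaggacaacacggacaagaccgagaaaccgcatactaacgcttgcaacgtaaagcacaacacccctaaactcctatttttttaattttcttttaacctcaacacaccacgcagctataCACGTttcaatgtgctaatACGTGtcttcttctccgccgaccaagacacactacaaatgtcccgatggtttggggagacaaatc
XERO1, chr3:18941675-18941924, plus strand: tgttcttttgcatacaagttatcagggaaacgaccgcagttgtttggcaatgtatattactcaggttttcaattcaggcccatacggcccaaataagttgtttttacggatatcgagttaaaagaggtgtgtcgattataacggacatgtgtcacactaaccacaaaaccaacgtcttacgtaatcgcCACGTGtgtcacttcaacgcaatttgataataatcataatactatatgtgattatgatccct
M17, chr2:17206202-17206451, plus strand: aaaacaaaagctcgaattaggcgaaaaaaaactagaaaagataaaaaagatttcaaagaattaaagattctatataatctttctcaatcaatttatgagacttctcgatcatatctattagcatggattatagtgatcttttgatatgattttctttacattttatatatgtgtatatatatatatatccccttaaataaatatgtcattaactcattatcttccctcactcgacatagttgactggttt
The ABRE core nearest to the gene start ended 48 bases before it in LEA4-5, 60 in AT3G15670 and 56 in XERO1. These matches describe letters in a window, not sites in use.

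**Figure D1:**
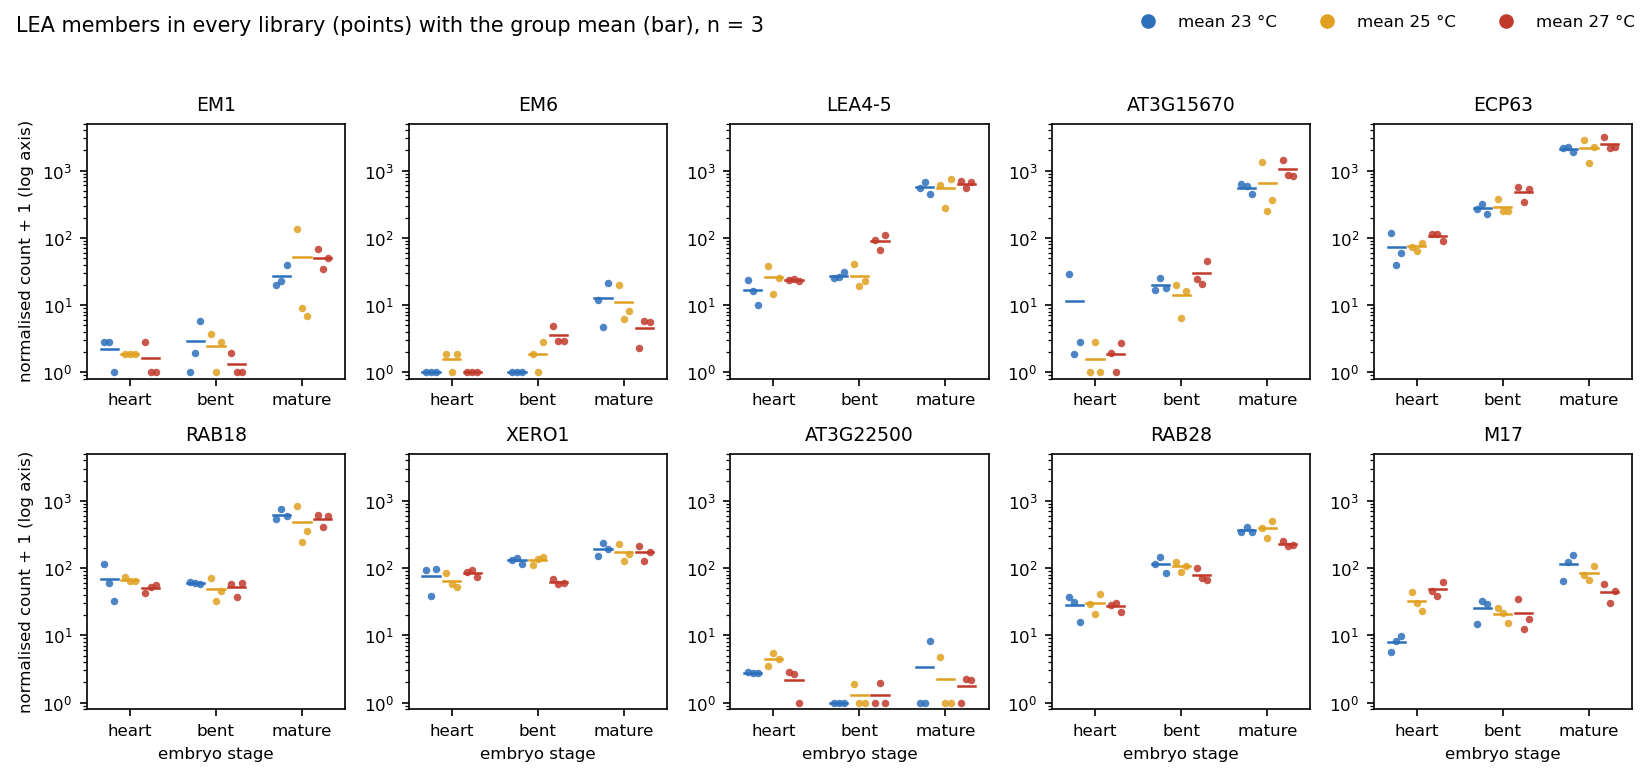
Normalised counts plus 1 of the 10 LEA members on a log axis, by embryo stage and mean growth temperature. Each point is a library and each bar the mean of 3, and EM6 and AT3G22500 stay near the bottom of the axis while ECP63 has a mean of 2096 in mature seeds at 23 °C.

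Levels were compared between members as TPM, which divides by transcript length. In mature seeds at 23 °C, ECP63, named after an embryonic cell protein of carrot, led with 84.7 TPM (75.8 to 90.95 over the 3 libraries). LEA4-5, RAB18, RAB28 and AT3G15670 followed with means of 40.4, 38.05, 37.6 and 35.4 TPM, and their ranges overlapped from one to the next, so their order is not fixed by these libraries. XERO1 came next at 17.6 TPM (13.9 to 21.4), and M17 at 7.10 (3.92 to 9.70). EM1 (1.86 TPM), EM6 (1.046 TPM) and AT3G22500 (0.140 TPM) closed the order, each with a range that overlapped that of its neighbour. At every temperature these 3 were below the 6 strongest members in mature seeds. With the deposited effective lengths in place of the full lengths, ECP63 still led, at 50.8 TPM, but RAB18 (23.65 TPM) came after LEA4-5 (33.0), RAB28 (30.2) and AT3G15670 (25.6), and M17 stood at 4.54 TPM.

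The order was another at the early stages. In heart seeds at 23 °C XERO1 was the highest member at 9.74 TPM (4.78 to 12.4) and ECP63 stood at 4.08 (2.18 to 6.72), with overlapping ranges. With effective lengths these means were 9.17 and 2.34 TPM, and that of RAB18 3.47 in place of 5.84. Summed over the 10 members, the level at 23 °C was 19.02 to 39.7 TPM (heart), 34.9 to 68.6 (bent) and 240.6 to 295.6 (mature). At 27 °C the same sum was 32.8 to 35.5, 51.2 to 73.9 and 249.4 to 343.7 TPM, so that the ranges at 23 and 27 °C overlapped at every stage.

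**Figure D2:**
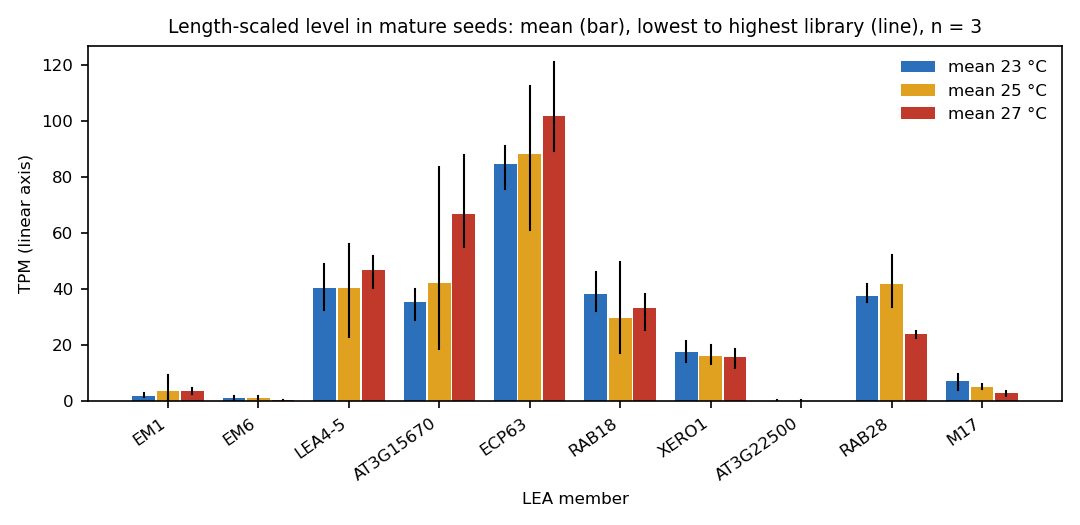
TPM of each member in mature seeds at mean 23, 25 and 27 °C, with bars for the mean of 3 libraries and lines from the lowest to the highest library. ECP63 is the highest member at each temperature, and RAB28 and M17 are the members whose 27 °C range lies below their 23 °C range and that were called lower.

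The first comparison asked how the members changed as the embryo developed. From bent to mature seeds, 7 of the 8 tested members rose at 23 °C, 7 at 25 °C and 8 at 27 °C, and none fell (DESeq2, adjusted p under 0.05). Over all 21445 genes tested, 23.4%, 23.4% and 24.6% were called higher in these comparisons. The median log2 fold change of the members was 3.17 at 23 °C against -0.02 over all genes. EM1 passed the filter on low counts only through mature seeds and could therefore hardly have moved another way.

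At 23 °C the steepest climb from bent to mature seeds among the tested members was that of AT3G15670, which belongs to the same LEA_4 subfamily as ECP63 and has no gene symbol in the annotation. It was counted 15.8, 24.0 and 16.9 times (normalised counts, as throughout unless TPM is named) in bent seeds and 628, 585 and 449 times in mature seeds, a rise of 4.87 ± 0.84 on the log2 scale (SE, n = 3 each, DESeq2 adjusted p 4.4e-08). LEA4-5, a protein of the LEA_1 subfamily that protects enzymes from drying in vitro, rose from 24.2, 24.9 and 30.2 to 553, 678 and 448 (log2 fold change 4.41 ± 0.37, DESeq2 adjusted p 7.13e-31). RAB18, an ABA-responsive dehydrin long used as a marker of ABA signalling, rose from 61.4, 58.4 and 57.9 to 527.4, 754.9 and 589.1 (3.40 ± 0.39, DESeq2 adjusted p 2.15e-16). In none of the 3 genes did a mature library come near the bent libraries. ECP63 rose by 2.95 ± 0.30, M17 by 2.21 ± 0.41 and RAB28 by 1.67 ± 0.26 at 23 °C, all with adjusted p below 1e-06 by DESeq2. XERO1 was the exception at 23 °C, with 132.1, 139.9 and 114.6 in bent against 151.9, 235.8 and 192.4 in mature seeds (0.58 ± 0.28, DESeq2 adjusted p 0.0653, and 0.0365 without replicate 1 of mature seeds).

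From heart to bent seeds fewer members moved. ECP63, RAB28, M17 and XERO1 rose at 23 °C, 4 of 8 where 29.3% of all genes were called higher, and no member fell. RAB28, named for its response to ABA, went from 36.6, 30.4 and 15.1 to 115.3, 142.8 and 83.3 (2.06 ± 0.29, DESeq2 adjusted p 1.71e-11), and ECP63 from 116.2, 38.5 and 57.6 to 267.8, 321.9 and 225.6 (1.94 ± 0.31, DESeq2 adjusted p 2.02e-09). RAB18 stayed in one range, at 31.0 to 112.5 in heart and 57.9 to 61.4 in bent seeds, and its difference of -0.19 (95% interval -0.98 to 0.61) was not called. XERO1 lost its call without replicate 2 of heart seeds (0.46, DESeq2 adjusted p 0.123) and with scaling to library totals (0.62, adjusted p 0.0523). When replicate 1 of the heart controls was left out, LEA4-5 (1.13, adjusted p 0.0346) and AT3G15670 (3.82, adjusted p 0.000481) were also called higher in bent seeds, which made 6 of 8. The share of all genes called higher in that fit is not given here. At 25 °C ECP63, RAB28, XERO1 and AT3G15670 rose, 4 of 8 beside 27.0% of all genes, though AT3G15670, at 0 to 1.78 in heart and 5.36 to 18.6 in bent seeds, was not called by edgeR (adjusted p 0.0575). At 27 °C LEA4-5, AT3G15670, ECP63 and RAB28 rose, 4 of 8 beside 20.7%, and M17 fell, beside 22.2%.

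**Figure D3:**
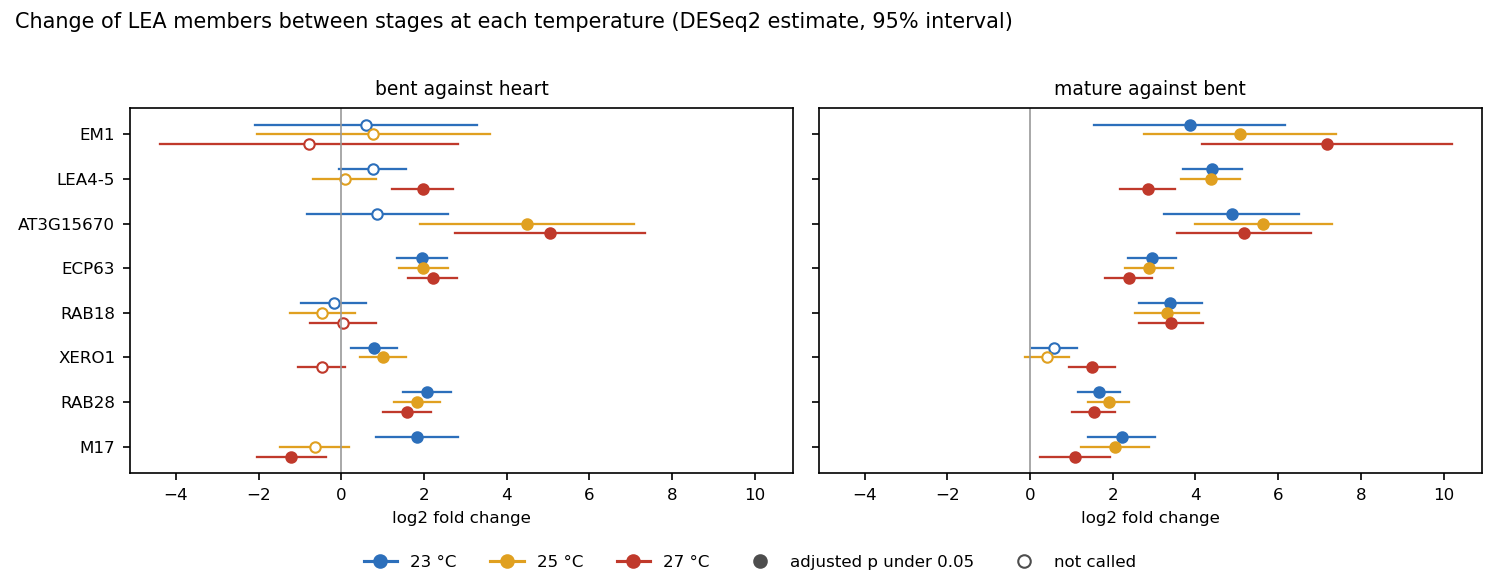
Log2 fold change between successive stages for the 8 tested members at 23, 25 and 27 °C, with 95% intervals; filled points have a DESeq2 adjusted p under 0.05. M17 is the member whose bent against heart change turns from 1.82 at 23 °C to -1.21 at 27 °C, and all mature against bent estimates lie above 0.

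The second comparison asked what the members did under mild heat stress. At 25 against 23 °C, 1 of the 8 tested members was called in heart seeds, where 0.821% of all genes were called in either direction, and 0 in bent and in mature seeds, where 3.06% and 1.6% were. In bent and mature seeds 0 of the 8 members had an unadjusted p under 0.05 in DESeq2. Of all 21445 genes, 1260 had such a p for a rise and 2483 for a fall at the bent stage. For the mature stage these numbers were 1583 and 1140. With 8 members, a count of 0 cannot be told from such a background. Calls by edgeR cannot decide the matter, since it called 0 of all genes at the bent stage. At the mature stage it called 38 higher and 43 lower, and 0 of the members at either stage. In bent seeds DESeq2 withheld the adjusted p of 7 of the 8 through its filter on mean counts, as it did for 15803 of all 21445 genes. Only ECP63 could be called there, and the 3.06% takes the withheld genes as not called. The 0 in bent seeds can therefore not be set against that share. The member called in heart seeds was M17. The next section takes the members by subfamily under severe heat stress, at 27 against 23 °C, where the shares of all genes called were 24.1% (heart), 36.9% (bent) and 30.2% (mature).

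**Figure D4:**
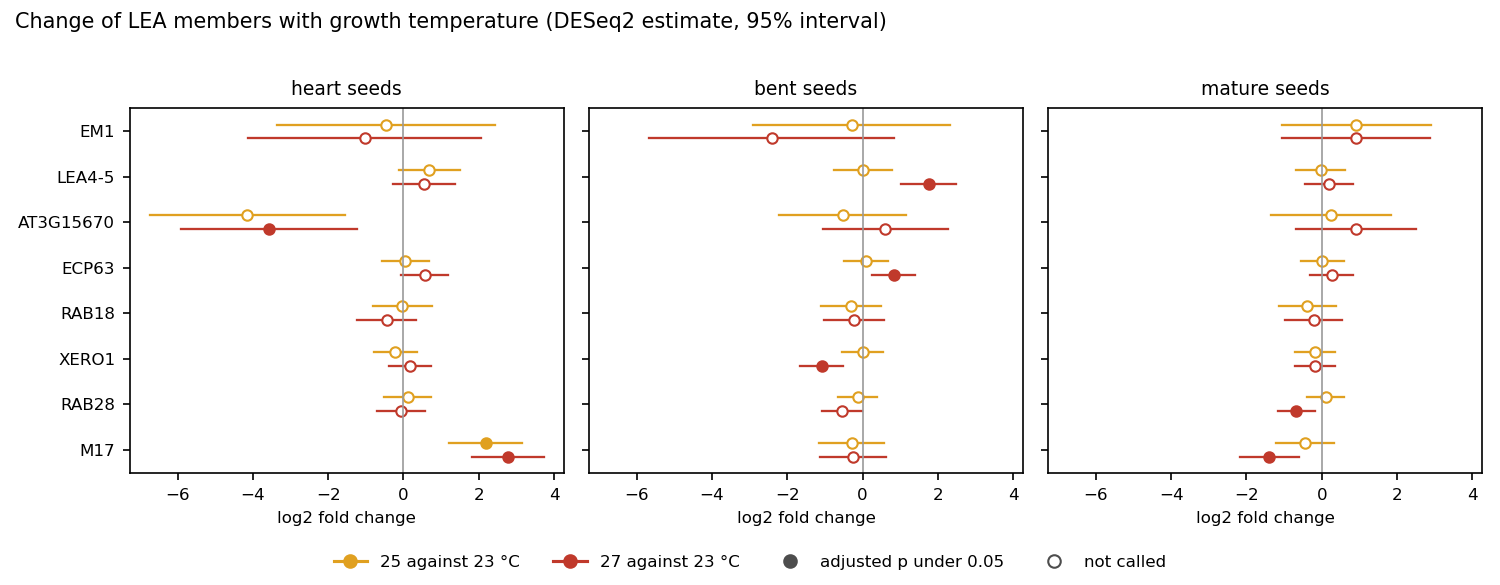
Log2 fold change at 25 and at 27 °C against 23 °C for the 8 tested members in heart, bent and mature seeds, with 95% intervals; filled points have a DESeq2 adjusted p under 0.05. Members are called in both directions at 27 °C, and M17 is higher in heart seeds (2.78) and lower in mature seeds (-1.39).

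Severe heat stress raised 1 of the 8 tested members in heart seeds (M17), where 12.6% of all genes rose, and 1 fell (AT3G15670), where 11.5% fell. In bent seeds LEA4-5 and ECP63 rose and XERO1 fell, 2 and 1 of 8 beside 15.9% and 21.0% of all genes. In mature seeds 0 rose while RAB28 and M17 fell, beside 14.7% and 15.4%. The members' median log2 fold change was 0.05, -0.24 and 0.01 at the 3 stages, against -0.01, -0.02 and 0.00 over all genes. In mature seeds no member had an unadjusted p under 0.05 for a rise in DESeq2, and edgeR called 0 higher. Of all 21445 genes, 4148 had such a p in DESeq2 and edgeR called 3157 higher. When replicate 1 of the heart controls was left out, 2 members rose and 0 fell in heart seeds, and the share of all genes in that fit is not given here. With 8 genes the shares of members called cannot be told from those of all genes, and the account therefore turns to each member.

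EM1 and EM6 encode the Em proteins, among the most hydrophilic proteins of the dry seed and direct targets of ABI5. EM1 was at or under 3 counts in every heart library, and in mature seeds it stood at 19.1, 21.9 and 38.0 at 23 °C, at 136.1, 8.17 and 5.92 at 25 °C and at 66.5, 33.7 and 48.6 at 27 °C. The 3 libraries at 25 °C spanned the whole range of the other groups and beyond. Accordingly 27 against 23 °C gave 0.91 with a 95% interval of -1.06 to 2.89 (DESeq2 adjusted p 0.539), while 27 against 25 °C gave -0.01 with all libraries and 2.81 (adjusted p 0.000286) without replicate 1 at 25 °C. The climb from bent to mature seeds was at least 16.5-fold at 27 °C when the bent group was set at 3 counts per library. At 25 °C the fitted rise was 5.07 on the log2 scale with all libraries and 2.25 without replicate 1 of mature seeds, so that its size rested on that library. EM6 had 77 counts over all 27 libraries. It stood at 10.8, 3.65 and 20.2 in mature seeds at 23 °C, 18.5, 5.11 and 7.11 at 25 °C and 1.26, 4.82 and 4.63 at 27 °C, and at 0 in all heart and bent libraries at 23 °C. In mature seeds the groups at 25 and 27 °C did not overlap, while each overlapped the group at 23 °C, and the mature libraries at 23 °C were all above the bent ones. EM6 was not tested.

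In bent seeds LEA4-5 had the largest rise at 27 °C among the 8 tested members. It was counted 24.2, 24.9 and 30.2 times at 23 °C, 39.9, 17.9 and 21.5 times at 25 °C and 92.0, 65.5 and 108.9 times at 27 °C. All 3 libraries at 27 °C were above all 6 others, and the change against 23 °C was 1.76 ± 0.38 on the log2 scale (DESeq2 adjusted p 3.4e-05), beside 1.75 ± 0.37 against 25 °C (DESeq2 adjusted p 5.08e-05), a comparison in which 22.8% of all genes were called. The call against 23 °C held in 6 of 6 fits that each left out a library of these groups. In heart seeds the values at 27 °C (22.9, 23.7 and 21.8) were beside those at 23 °C (22.9, 15.2 and 8.86), and in mature seeds they were 695, 549 and 673 against 553, 678 and 448, with no call at either stage. From heart to bent seeds LEA4-5 rose at 27 °C (1.96 ± 0.38, DESeq2 adjusted p 1.27e-06), beside 0.75 at 23 °C (adjusted p 0.109) and 0.08 at 25 °C (adjusted p 0.881). The difference between the steps at 27 and 23 °C did not pass its own test (interaction 1.21 ± 0.56, DESeq2 adjusted p 0.134, edgeR adjusted p 0.247), and the step at 23 °C was called without replicate 1 of the heart controls. The summed embryo maturation markers of bent seeds were 98180 to 196100 at 27 °C against 77190 to 109500 at 23 °C, and their part in this result was not tested.

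ECP63, in the LEA_4 subfamily, moved the same way in bent seeds but less. It stood at 267.8, 321.9 and 225.6 at 23 °C, at 371.3, 244.9 and 252.2 at 25 °C and at 567.4, 344.6 and 530.2 at 27 °C. The groups at 23 and 27 °C did not overlap, and the change was 0.82 ± 0.30 (DESeq2 adjusted p 0.0193). That call was lost without replicate 3 at 23 °C (0.70, adjusted p 0.0944), without replicate 1 at 27 °C (0.68, adjusted p 0.106) and without replicate 3 at 27 °C (0.74, adjusted p 0.0839). Against 25 °C the change was 0.73 (DESeq2 adjusted p 0.0568) and was not called, also in 4 of 6 fits that left out a library of these groups. It was called without replicate 1 at 25 °C (0.95, adjusted p 0.024) or replicate 2 at 27 °C (0.92, adjusted p 0.026). Fits to the stages compared (0.75, adjusted p 0.0132) and with a replicate block (0.74, adjusted p 0.0162) called it too. The call was also made when replicate 1 of the heart controls was left out of the shared fit, with the same log2 fold change of 0.73. In heart seeds ECP63 was at 116.2, 38.5 and 57.6 at 23 °C and 113.6, 111.6 and 87.1 at 27 °C, a difference that was not called with all libraries (0.56, DESeq2 adjusted p 0.197) and was called without replicate 1 at 23 °C (1.12, adjusted p 0.00336). In mature seeds its 2168 to 3148 at 27 °C overlapped its 1869 to 2260 at 23 °C.

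AT3G15670 showed how far a single library can carry a value. In heart seeds it was counted 28.4, 0.895 and 1.77 times at 23 °C and 0.916, 0 and 1.68 times at 27 °C. The call of a fall at 27 °C (-3.58 ± 1.19, DESeq2 adjusted p 0.015) rested on replicate 1 at 23 °C, the library with embryo maturation transcripts far above its group, and without it the change was -0.63 (adjusted p 0.786). The call was also lost without replicate 2 at 27 °C (-2.98, adjusted p 0.0844) and was not made by edgeR (adjusted p 0.202). In bent seeds the values were 15.8, 24.0 and 16.9 at 23 °C and 23.0, 19.7 and 43.4 at 27 °C. In mature seeds AT3G15670 stood at 628, 585 and 449 at 23 °C and at 1443, 845 and 839.8 at 27 °C, so that the groups did not overlap, yet the change of 0.91 (95% interval -0.68 to 2.51) was not called (DESeq2 adjusted p 0.427). LEA7 (AT1G52690), its closest relative on the list of LEA genes, had 1550 to 1987 counts in mature seeds at 23 °C and 1085 to 1404 at 27 °C (-0.53 ± 0.34, DESeq2 adjusted p 0.238), a difference of the opposite sign that was also not called.

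Of the dehydrins XERO1 and RAB18, XERO1 was called lower at 27 °C in bent seeds and RAB18 was not called. Their 95% intervals against 23 °C overlapped (-1.65 to -0.53 and -1.03 to 0.57), and these genes were not tested against each other. Dehydrins carry the lysine-rich K segment with which they bind membranes. XERO1 stood at 132.1, 139.9 and 114.6 at 23 °C, at 109.0, 134.1 and 144.5 at 25 °C and at 67.1, 56.2 and 58.8 at 27 °C. All 3 libraries at 27 °C lay below all 6 cooler ones, with a change of -1.09 ± 0.29 against 23 °C (DESeq2 adjusted p 0.000952) and of -1.09 ± 0.29 against 25 °C (DESeq2 adjusted p 0.00153), and both calls held in 6 of 6 fits that left out a library. In the same bent seeds the summed pollen markers were 592.1 to 1256 at 23 °C and 98.7 to 184.1 at 27 °C, and the seed coat markers 34150 to 60710 and 29010 to 30490, and their part in the result was not tested. In heart seeds (37.6 to 94.8 at 23 °C, 73.7 to 91.3 at 27 °C) and in mature seeds (151.9 to 235.8 and 127.6 to 213.3) the groups overlapped and were not called. With the lower level in bent seeds, the step from heart to bent seen at 23 °C (0.78 ± 0.28) and 25 °C (1.01 ± 0.28, DESeq2 adjusted p 0.00103) was not called at 27 °C (-0.47, 95% interval -1.04 to 0.10). The step from bent to mature was 1.49 ± 0.29 at 27 °C (DESeq2 adjusted p 1.24e-06). The difference of this last step from that at 23 °C did not pass its own test (interaction 0.91 ± 0.40, DESeq2 adjusted p 0.196, edgeR adjusted p 0.226).

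RAB18 was called in no comparison between temperatures at any stage with all libraries. It stood at 527.4, 754.9 and 589.1 in mature seeds at 23 °C, 839.3, 245.2 and 354.2 at 25 °C and 614.8, 409.3 and 584.2 at 27 °C. The intervals leave room for change, with -0.22 (95% interval -0.97 to 0.53) at 27 against 23 °C in mature seeds and -0.23 (-1.03 to 0.57) in bent seeds. Without replicate 1 of mature seeds at 25 °C, RAB18 was called higher at 27 than at 25 °C (0.84, DESeq2 adjusted p 0.0479). RAB18 overlaps a gene on the other strand, AT5G66410, by 11 bases at its end, and no other member overlaps a gene. LTI30 (AT3G50970), a cold-induced dehydrin that lies beside XERO1 on chromosome 3, was at 86.2 to 119.0 in bent seeds at 23 °C and 70.0 to 132.1 at 27 °C (-0.06 ± 0.29, DESeq2 adjusted p 0.899).

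RAB28, a seed maturation protein whose maize counterpart is a nuclear protein of the embryo, was lower in mature seeds under severe heat stress. It stood at 346.8, 406.0 and 339.7 at 23 °C, at 395.6, 282.0 and 496.4 at 25 °C and at 253.4, 214.3 and 216.3 at 27 °C. Every library at 27 °C was below every cooler one, and the change was -0.68 ± 0.25 against 23 °C (DESeq2 adjusted p 0.0283) and -0.78 ± 0.25 against 25 °C (DESeq2 adjusted p 0.00936), where 32.0% of all genes were called. The call against 23 °C is a fragile one, since it was lost in 4 of 6 fits that left out a library, without replicate 1 at 23 °C (adjusted p 0.0604), replicate 2 at 23 °C (0.125), replicate 2 at 27 °C (0.0981) or replicate 3 at 27 °C (0.0933), with log2 fold changes from -0.71 to -0.59. It was also lost with scaling to library totals (-0.66, adjusted p 0.0566). Against 25 °C it was lost without replicate 3 at 25 °C (-0.57, adjusted p 0.0959). In bent seeds RAB28 was at 83.3 to 142.8 at 23 °C and 64.6 to 100.6 at 27 °C (-0.54 ± 0.27, DESeq2 adjusted p 0.0995), and it was called lower there without replicate 3 at 23 °C (-0.72, adjusted p 0.0405) or replicate 1 at 27 °C (-0.76, adjusted p 0.0364). AT3G22500, a second seed maturation protein, had 35 counts over all 27 libraries, and its highest groups were heart seeds at 25 °C (2.55, 4.45 and 3.47) and mature seeds at 23 °C (0, 0 and 7.13). Its neighbour AT3G22490 was as low, at 0 to 2.60 in every library.

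M17 was called in opposite directions at 27 °C in heart and in mature seeds. It encodes a glycine-rich protein that the annotation also lists as a LEA protein. In heart seeds it was counted 4.57, 7.16 and 8.86 times at 23 °C, 42.5, 29.4 and 21.7 times at 25 °C and 44.0, 37.2 and 60.3 times at 27 °C. Every library at 25 and 27 °C was above every control library, and the rise was 2.18 ± 0.49 at 25 °C (DESeq2 adjusted p 0.00311) and 2.78 ± 0.49 at 27 °C (DESeq2 adjusted p 3.93e-07). The call at 25 °C was lost without replicate 1 at 25 °C (1.89, adjusted p 0.0591) and was not made by edgeR (adjusted p 0.0694), while that at 27 °C held in 6 of 6 such fits and in edgeR (adjusted p 0.000188). The summed embryo maturation markers of heart seeds were 74.7 to 159.7 at 25 °C, below the 565.8 to 61400 at 23 °C, and 6616 to 10830 at 27 °C. At 27 °C the summed pollen markers of heart seeds were 222.4 to 333.4 against 982 to 2506 at 23 °C, the endosperm markers 1223 to 1264 against 1306 to 1874 and the seed coat markers 35790 to 37180 against 39350 to 50220, all without overlap. At 25 °C these 3 sums (339.7 to 1442, 1462 to 1996 and 45070 to 51090) overlapped those at 23 °C. The part of any of these markers in the result was not tested.

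In bent seeds M17 stood at 14.0, 31.6 and 27.8 at 23 °C, 24.8, 20.6 and 14.4 at 25 °C and 33.5, 11.2 and 16.4 at 27 °C, with overlapping groups and no call. In mature seeds it was counted 62.2, 121.6 and 154.4 times at 23 °C, 79.1, 64.4 and 105.4 times at 25 °C and 56.5, 28.9 and 44.0 times at 27 °C. Here every library at 27 °C was below every control library, a fall of 1.39 ± 0.40 on the log2 scale (log2 fold change -1.39, DESeq2 adjusted p 0.00331) whose call was lost without replicate 3 at 23 °C (-1.09, adjusted p 0.05). In mature seeds, where RAB28 and M17 were both lower, the summed pollen markers were 288.2 to 1115 at 23 °C and 61.4 to 111.0 at 27 °C, the endosperm markers 231.0 to 339.7 and 121.7 to 194.3 and the seed coat markers 19500 to 26000 and 15060 to 16550, and their part in both results was not tested. The direction between heart and bent seeds turned with it, from a rise at 23 °C (1.82 ± 0.50, DESeq2 adjusted p 0.000764) to a fall at 27 °C (-1.21 ± 0.42, DESeq2 adjusted p 0.0121). The fall at 27 °C was lost without replicate 3 of heart seeds or without replicate 2 or 3 of bent seeds (-0.99, -0.92 and -1.08, with adjusted p of 0.086, 0.0968 and 0.0624). M17 rose from bent to mature seeds by 2.21 at 23 °C, 2.06 at 25 °C and 1.08 at 27 °C, the last with a DESeq2 adjusted p of 0.0274 that was lost in 4 of 6 fits that left out a library, namely replicate 2 or 3 of bent seeds or replicate 1 or 3 of mature seeds at 27 °C (adjusted p 0.0649 to 0.166). The difference between the bent to mature steps of M17 at 27 and 23 °C did not pass its own test (interaction -1.13 ± 0.60, DESeq2 adjusted p 0.326, edgeR adjusted p 0.335). M10 (AT2G41280), a related gene near M17 on chromosome 2, was at 0 to 3.67 in every library.

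M17 has 2 listed transcripts of 946 and 1138 bases, and the counts were split between them in a way that varied from 0 to 100% between libraries of 1 group. In heart seeds at 23 °C all counts were given to the shorter transcript, as were 86.98 to 100% at 27 °C, whereas in mature seeds at 23 °C the longer received 49.9 to 55.6% of the counts. The values above are sums of both transcripts. With the shorter transcript alone, M17 stood at 2.65 in heart seeds (DESeq2 adjusted p 0.11) and -1.51 in mature seeds (adjusted p 0.398) at 27 against 23 °C, and none of its calls with the sums was kept.

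**Figure D5:**
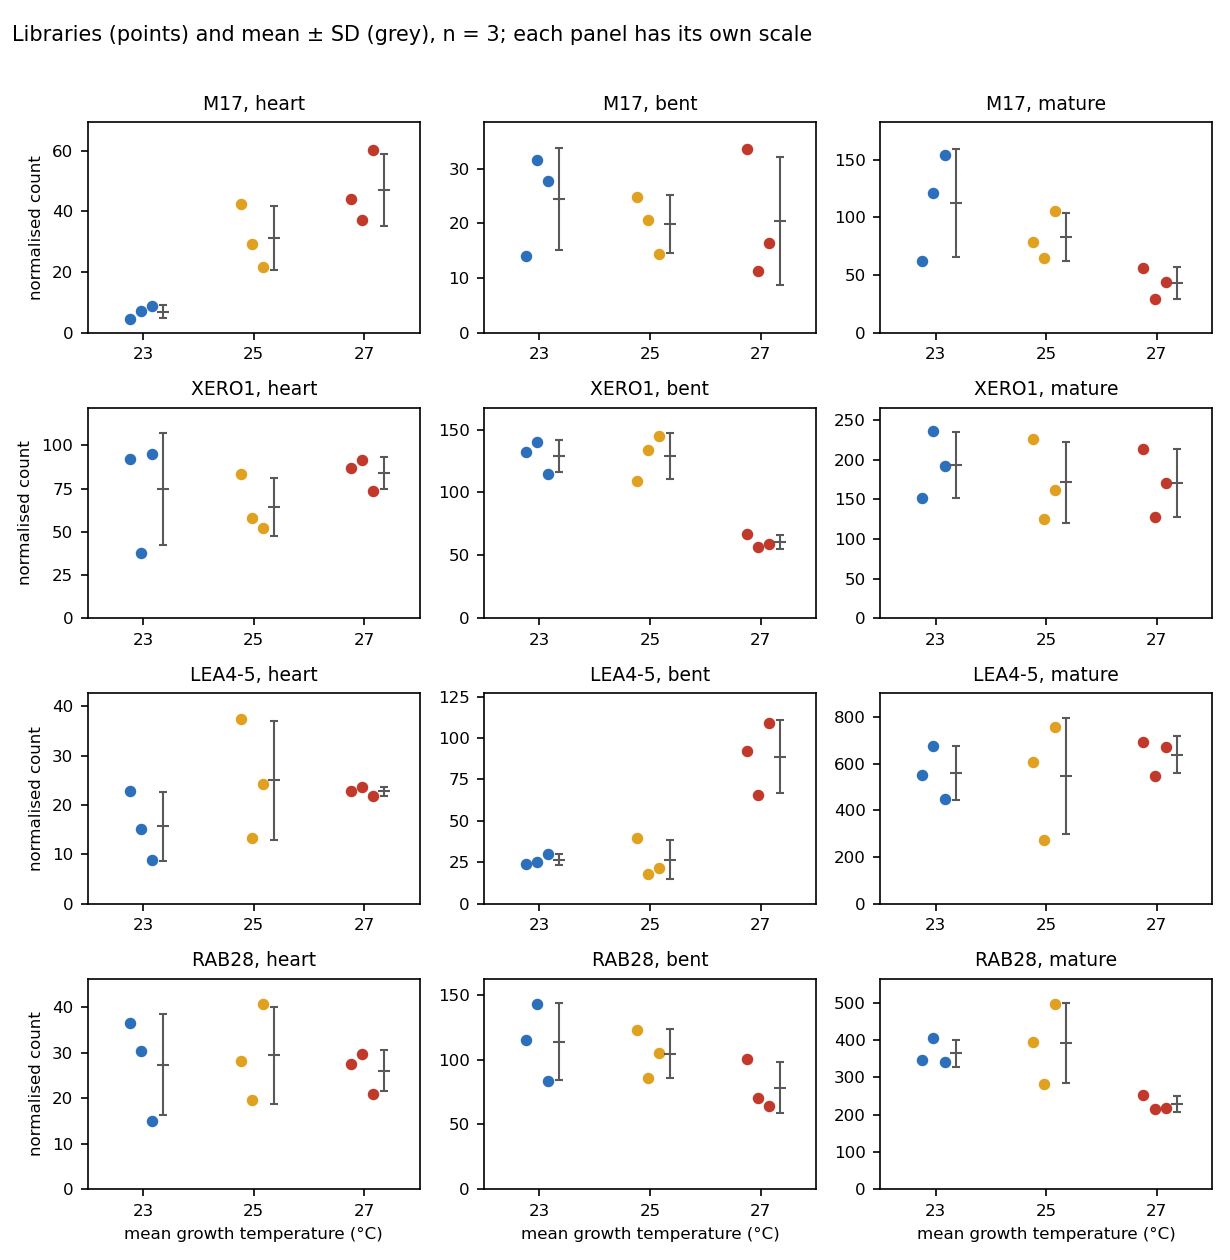
Normalised counts of M17, XERO1, LEA4-5 and RAB28 by mean growth temperature at each stage on linear axes that start at 0, with a point per library and the mean ± SD of 3 in grey. M17 at 27 °C lies above its control libraries in heart seeds (37.2 to 60.3 against 4.57 to 8.86) and below them in mature seeds (28.9 to 56.5 against 62.2 to 154.4).

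Whether the response to 27 °C differed between stages was tested as an interaction over the same 27 libraries. For M17 the response in bent seeds was below that in heart seeds by 3.04 ± 0.66 on the log2 scale (interaction -3.04, DESeq2 adjusted p 0.000132), and that in mature seeds below that in heart seeds by 4.17 ± 0.63 (interaction -4.17, DESeq2 adjusted p 3.51e-09). Both held in 12 of 12 fits that left out a library and in edgeR (adjusted p 0.0037 and 5.77e-05). For XERO1 the response in bent seeds was below that in heart seeds (-1.25 ± 0.41, DESeq2 adjusted p 0.0188), a call kept in 10 of 12 such fits and lost without replicate 2 of heart seeds at 23 or at 27 °C. The LEA4-5 response in mature seeds was below that in bent seeds (-1.56 ± 0.50, DESeq2 adjusted p 0.0364), but this was kept in 3 of 12 fits and not in edgeR (adjusted p 0.0691). Over all genes, 14.7%, 5.5% and 14.9% were called for bent against heart, mature against bent and mature against heart.

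The 41 other LEA genes on the list, of which 30 were tested, moved both ways as the members did. At 27 against 23 °C, 4 rose and 3 fell in heart seeds (median log2 fold change 0.01), 5 rose and 6 fell in bent seeds (0.13) and 3 rose and 4 fell in mature seeds (-0.05). Over all genes the shares higher and lower were 12.6% and 11.5% (heart), 15.9% and 21.0% (bent) and 14.7% and 15.4% (mature), so these counts of 30 were near the background. When replicate 1 of the heart controls was left out, 10 rose at the heart and 9 at the bent stage, and without replicate 2 or replicate 3 of the mature controls, 1 rose at the mature stage. The shares of all genes in those fits are not given here, so these counts cannot be set beside a background. The falls in bent seeds lay mostly in dehydrins, with 5 of 7 tested dehydrins lower and 0 higher, and of the 12 tested genes of the LEA_4 subfamily 3 were higher and 0 lower, beside the same 15.9% and 21.0% of all genes. AT4G38410, a dehydrin family gene, had the deepest fall of those named by the rule, from a mean of 187.6 to 61.0 in bent seeds (-1.62 ± 0.25, DESeq2 adjusted p 3.83e-09). COR47, a cold-regulated acidic dehydrin, went from a mean of 2042 to 1088 in bent seeds (-0.91 ± 0.19, DESeq2 adjusted p 1.69e-05), and HIRD11, a small histidine-rich dehydrin, from 4731 to 2720 (-0.80 ± 0.19, DESeq2 adjusted p 0.000141). HIRD11 had already fallen in heart seeds (-0.99 ± 0.18, DESeq2 adjusted p 2.16e-06). In mature seeds ERD10, an early response to dehydration protein, fell from 2884 to 1539 (-0.91 ± 0.17, DESeq2 adjusted p 2.35e-06), and COR47 (-0.74 ± 0.19) and LEA14 of the LEA_2 subfamily (-0.62 ± 0.14) fell as well. In the other direction, AT2G46140 of LEA_2 rose from 151.2 to 220.8 in bent seeds (0.55 ± 0.15, DESeq2 adjusted p 0.00118), and AT2G23120, a group 6 LEA gene, from 928 to 1266 in mature seeds (0.45 ± 0.17, DESeq2 adjusted p 0.0319). Of the dehydrins among the members, XERO1 fell in bent seeds as most of these did, and RAB18 was not called.

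Of 9 transcription factors known to act upstream of LEA genes, all tested, 5 rose and 0 fell at 27 °C in heart seeds, where 12.6% of all genes rose and 11.5% fell. Among bent seeds 0 rose and 3 fell (15.9% and 21.0% of all genes), and among mature ones 0 rose and 2 fell (14.7% and 15.4%), counts of falls that with 9 genes are not far from those shares. In heart seeds FUS3, a B3-domain regulator of maturation, rose by 1.52 ± 0.22 (DESeq2 adjusted p 5.7e-10), bZIP67, an activator of seed storage genes, by 1.95 ± 0.31 (adjusted p 2.12e-08) and EEL, a bZIP that binds the EM1 promoter, by 1.13 ± 0.24 (adjusted p 3.63e-05). ABI5 was also among the 5 that rose there (0.42 ± 0.14, DESeq2 adjusted p 0.0155), while ABI3 was among those that did not pass (-0.21 ± 0.22, adjusted p 0.547). The summed embryo maturation markers of heart seeds were 6616 to 10830 at 27 °C, against 61400, 897.8 and 565.8 at 23 °C. Their part in these rises was not tested. In bent seeds ABI3 (-0.75 ± 0.21), EEL (-0.67 ± 0.23) and L1L (-1.37 ± 0.23) fell. At 25 against 23 °C in heart seeds, DESeq2 called 0 of the 9 higher and 2 lower, beside 59 and 117 of all 21445 genes. For that comparison edgeR called 0 of the 9, but also no more than 16 higher and 22 lower of all genes. Counts of these 9 without replicate 1 of the heart controls are not given here.

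The genes most like each member over the 27 libraries were found by Pearson's r of log2 (normalised count + 1) among genes with a mean of at least 100, as a description in which stage accounts for much of the variation. ECP63 was most like FRD3 (0.99) and AT2G38905 (0.99), LEA4-5 most like AT2G38465 (0.98) and AT3G15670 most like AT2G15010 (0.98). RAB18 was most like the NAC transcription factor gene NTL9 (0.97), RAB28 most like HEMD (0.98) and XERO1 most like the defensin-like gene PDF2.1 (0.89). The closest gene to M17, AT1G18700, reached 0.81. Among the 8 tested members the closest pair was AT3G15670 and ECP63 (0.96), and M17 was the least like the others, with r between 0.51 and 0.69.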

How the data were processed

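RNA of whole Col-0 seeds was sequenced as single-end reads after mRNA enrichment, and the authors quantified it with Salmon against the Araport11 transcripts. The deposited table gives expected counts per transcript, not normalised, for 48268 transcripts, of which 61.5% of values are not whole (tolerance 1e-09). Whether counting used strand is not given in the sources used here. Counts were summed over the transcripts of a locus and rounded. The deposited columns of transcript length (other unit: bases) served for TPM. All 27 sample columns were used.

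DESeq2 1.42.0 (R 4.3.3) was fitted to the 9 groups over all 27 libraries, on the 21445 genes that reached 10 counts in 3 or more libraries. Wald tests gave 18 contrasts, with Benjamini-Hochberg adjusted p under 0.05 as the call. Group levels are normalised counts (counts divided by DESeq2 size factors, 0.797 to 1.19). Errors are SD or, for fold changes, SE, with n = 3. The labels do not say which replicates came from separate plants, so p-values measure the spread between these libraries, and 50 or more seeds were pooled for each. The study's methods call the RNA replicates biological without saying whether they came from separate plants. All replicate pairs differed by more than sampling noise. A group with at most 3 counts in each library was treated as at the floor, and a fold against it is a lower bound from 3 counts per library.

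The members and gene lists were chosen with earlier results of these data known. Of other LEA genes, up to 3 called genes in each direction were named per stage (27 against 23 °C, mean of at least 100, replicates apart). Alternatives were edgeR 4.0.16 (quasi-likelihood test), no filter on low counts, no independent filtering, scaling to library totals, only the stages compared, a replicate block, the first transcript of each locus, and each library left out in turn. The scripts were tested on simulated counts. Table lengths equalled the spliced lengths in TAIR10.1 for all 48072 matched transcripts, so its coordinates were used. The authors' own comparisons were not used. The upstream sequence of ECP63 is not reported here.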

Additional observations from a re-analysis of the deposited data

Results flagged for a closer look

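The response to 27 °C differed between stages, by the interaction test, in 6 cases. M17 had an interaction of -3.04 for bent against heart seeds and of -4.17 for mature against heart seeds. XERO1 had -1.25 for bent against heart seeds, which became -0.93 (DESeq2 adjusted p 0.0694) when replicate 2 of the heart controls was left out, and -1.19 (0.0576) when replicate 2 of the heart group at 27 °C was. LEA4-5 had -1.56 for mature against bent seeds, between -1.74 and -1.39 when single libraries were left out, and the call was lost in 9 of those 12 fits. AT3G15670 had 4.18 for bent against heart and 4.49 for mature against heart seeds, and these became 1.23 (DESeq2 adjusted p 0.617) and 1.54 (0.538) when replicate 1 of the heart controls was left out, the library with 28.4 normalised counts of AT3G15670 against 0.895 and 1.77 in the others of its group. Neither AT3G15670 interaction was called by edgeR (adjusted p 0.216 and 0.138).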

How the results depend on the processing

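Of the 144 member values, edgeR kept 138 and lost 6 calls, scaling to library totals lost 3, the first transcript alone lost 9, gained 1 and reversed 1, the fits to the stages compared gained 3 of 131, and dropping the low-count filter or independent filtering changed 0. Counts of members that moved were as follows. By edgeR, 0 rose at 25 °C in heart seeds, 0 fell at 27 °C in heart seeds, and 0 were called higher for bent against heart, lower for mature against bent and higher for mature against heart in the response to 27 °C. With the first transcript alone, 0 rose at 25 °C and 0 at 27 °C in heart seeds, 2 fell at 27 °C in bent and 1 in mature seeds, 0 fell from heart to bent at 27 °C, and the lower interactions were 1 (bent against heart) and 0 (mature against heart). The second fall in bent seeds was RAB28 (-0.68, DESeq2 adjusted p 0.0402), and the other shifts were lost calls of M17, whose counts are split between transcripts. There M17 rose by 2.65 in heart seeds at 27 °C (DESeq2 adjusted p 0.11), and from bent to mature seeds at 25 °C it turned to -0.06. Scaling to library totals left 1 member lower at 27 °C in mature seeds, RAB28 having lost its call (-0.66, adjusted p 0.0566). Fits to the stages compared gave 0 lower at 27 °C in heart seeds, where AT3G15670 did not pass the low-count filter and so was not tested, 2 higher at 27 against 25 °C in bent and 2 lower in mature seeds. For the other LEA genes, the counts lower at 25 °C in heart seeds were 0 by edgeR and 1 with the stages compared, those higher at 27 °C in bent seeds 10 with library totals and 8 with the stages compared, and those higher at 25 °C in mature seeds 1 with either.

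With single libraries left out, member counts ranged, at 25 against 23 °C in heart seeds, from 0 to 1 higher and 0 to 1 lower. At 27 against 23 °C they ranged from 1 to 2 higher and 0 to 1 lower in heart, 1 to 2 higher and 1 to 2 lower in bent, and 1 to 2 lower in mature seeds. At 27 against 25 °C they ranged from 1 to 2 higher in bent seeds and, in mature seeds, from 0 to 2 higher and 0 to 2 lower. From heart to bent at 27 °C, 0 to 1 fell. Interactions ranged from 0 to 1 higher and 1 to 2 lower (bent against heart), 0 to 1 lower (mature against bent) and 0 to 1 higher (mature against heart). Other LEA genes ranged from 0 to 2 higher and 0 to 4 lower (25 °C, heart), 3 to 10 higher (27 °C, heart), 0 to 2 lower (25 °C, bent), 5 to 9 higher (27 °C, bent), 0 to 1 higher (25 °C, mature) and 1 to 3 higher (27 °C, mature). Without replicate 1 of mature seeds at 25 °C, EM1 at 27 against 25 °C turned from -0.01 to 2.81, and the lowest value without any library was -0.54. The adjusted p of EM1 from bent to mature seeds at 27 °C was withheld without any 1 mature library at 27 °C. The shares of all genes called in the fits without single libraries are not given here. The cause of these shifts was not tested.

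Whether replicate numbers pair the libraries was not settled. Of 27 same-numbered pairs within a stage, 7 had correlated deviations over 0.1 (range -0.57 to 0.56), and differently numbered pairs were not compared with them. A replicate block changed 1 of the 144 calls, ECP63 at 27 against 25 °C in bent seeds (0.74, DESeq2 adjusted p 0.0162 in place of 0.0568), so that 2 members rose there with the block. Depth limits EM6 and AT3G22500, which were not tested, and EM1 in heart and bent seeds.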
